A study of Homo sapiens with 24 samples.

Results

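The 39 genes described here encode proteins that copy DNA or supply its nucleotides. Their mRNA levels were read from RNA-seq of 2 human colorectal adenocarcinoma cell lines, SW480 and SW620. The members are defined by a list of symbols of known replication proteins. All 39 were found among the 33382 genes listed in the deposited tables, and all 39 passed the filter on low counts that left 15302 genes to test. SW480 came from a primary tumour and SW620 from a metastasis of the same patient. Each line had been infected with a lentivirus carrying Tet2CD, the catalytic domain of the 5-methylcytosine dioxygenase TET2, or with an empty lentivirus (vector), and selected with 5 µg/ml puromycin. By the labels, each of these 4 cell populations was cultured for 24 h with 4 ng/ml TGFB1, a growth-inhibitory cytokine, with 1 µM RepSox, an inhibitor of the type I TGF-beta receptor, or with DMSO. The study's supplementary text describes a mixture of TGF-beta ligands, another dose and a longer treatment for its RNA-seq, so ligand, dose and time are uncertain. This gave 12 groups of 2 libraries. All cells, the controls included, carried a lentivirus and had been selected with puromycin. Whether both libraries of a group stem from different cultures or infections is not in the labels. The p-values therefore rest on the scatter of the sequenced libraries only, and part or all of it may be technical.

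Replication begins when the origin recognition complex, with CDC6 and CDT1, loads the ring of MCM2 to MCM7 onto DNA. CDC45 and the GINS proteins then turn that ring into a moving helicase. The primase and polymerase alpha lay down primers, RFC places the sliding clamp PCNA on them, and polymerases delta and epsilon extend the strands. FEN1 and LIG1 join the fragments of the lagging strand, RPA covers single-stranded DNA, and ribonucleotide reductase and thymidylate synthase supply the nucleotides. Most of these genes are known to be transcribed as cells leave G1, under E2F factors held back by retinoblastoma proteins, and TGF-beta is known to arrest many epithelial cells in G1. In a bulk sample, fewer cycling cells and less mRNA in each cell cannot be told apart.

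The promoters are shown because letters of E2F sites were found in them more often than in promoters of all genes. Most of these genes are known to be under E2F factors, so this excess is not independent of the list. The promoters of all genes were not matched for expression or base composition. RefSeq promoters of GRCh38.p14, 300-base windows with 250 bases before and 50 after the start, were matched for 33 of the 39 members. A set of E2F letters (TTTCGCGC, TTTGGCGC, TTTCCCGC or TTTGCCGC on either strand, where neighbouring matches may overlap) was present in 17 of 33 members, 51.5%, against 3.99% of the 27305 genes with a window. The other 16 members held no match. The letters CCAAT, on either strand, were present in 20 of 33 members, 60.6%, against 39.7% of all genes. TTTGAA, the core of the cell-cycle homology region of mitotic genes, was present on either strand in 1 of 33 members, 3.03%, against 18.2%. The 100 bases before the start of 6 members are printed below, 5′ to 3′ on the gene's strand, with the E2F letters in capitals. They were chosen from members described below with E2F letters in that stretch, 1 or more from 5 of the roles. All 6 were among the genes lower with TGFB1 in SW620 cells, so they show no link between letters and fall. CDC6, CDT1 and POLA1 held the letters and were not called there, and 9 members that were lower held none.
MCM6, chr2:135876444-135876543, minus strand: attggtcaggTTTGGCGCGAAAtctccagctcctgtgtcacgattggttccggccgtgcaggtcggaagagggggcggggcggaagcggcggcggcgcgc
GINS2, chr16:85688955-85689054, minus strand: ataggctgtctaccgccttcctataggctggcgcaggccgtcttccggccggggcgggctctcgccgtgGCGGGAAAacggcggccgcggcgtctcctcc
PCNA, chr20:5126623-5126722, minus strand: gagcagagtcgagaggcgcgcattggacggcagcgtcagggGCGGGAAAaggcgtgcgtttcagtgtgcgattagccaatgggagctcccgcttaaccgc
RFC3, chr13:33818049-33818148, plus strand: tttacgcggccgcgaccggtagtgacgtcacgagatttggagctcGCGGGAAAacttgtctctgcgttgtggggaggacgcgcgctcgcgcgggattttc
POLE, chr12:132687343-132687442, minus strand: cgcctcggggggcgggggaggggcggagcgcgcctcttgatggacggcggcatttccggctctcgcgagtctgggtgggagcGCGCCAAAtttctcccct
TYMS, chr18:657553-657652, plus strand: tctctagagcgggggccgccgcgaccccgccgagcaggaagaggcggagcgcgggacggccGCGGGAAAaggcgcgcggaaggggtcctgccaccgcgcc
In MCM6 the capitals are a pair of matches, 1 on each strand, that overlap. A match is a run of letters and not a measured binding site.

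Library totals were 2146123 to 4410567 expected counts with a median of 3653712. TET2 was 270 to 2640 CPM (counts scaled to one library total) in the Tet2CD libraries and 10.3 to 25.0 CPM in the vector libraries, with no overlap. The summed CPM of 10 colorectal epithelial markers was 7107 to 27116 in SW480 and 7490 to 13040 in SW620. Those of 5 blood cell, 3 endothelial and 5 fibroblast markers were at most 9.09, 18.8 and 26.0 in SW480 and 41.8, 16.7 and 36.0 in SW620, with CDH5 at 0 in every SW480 library and CD3E and COL3A1 at 0 in every SW620 library. Replicate 1 of SW480 Tet2CD stood apart under TGFB1, RepSox and DMSO. In these 3 libraries ribosomal protein genes took 12.7, 16.1 and 10.9% of counts, against 6.16 to 10.0% in the other 21, and the count-weighted mean gene length was 2041, 1818 and 2088 bases, against 2442 to 2878. Their chi-square per degree of freedom against replicate 2 was 35.4, 42.9 and 15.5, and that of the other 9 pairs was 1.63 to 6.25. In the same 3 libraries TET2 was 827, 270 and 894 CPM, against 2640, 1690 and 1849 CPM in replicate 2. The counts of members called are given with and without them.

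The 39 genes were expressed in every group. In vector cells with DMSO, in TPM, a scale corrected for gene length, SW480 levels ran from 516 for MCM7, a helicase subunit (516 and 515 in the libraries), and 428 for PCNA (451 and 406) to 12.3 for the helicase activator GINS3 (11.8 and 12.7). SW620 levels ran from 275 for PCNA (268 and 283) and 223 for MCM7 (207 and 240) to 13.1 for GINS4 (10.5 and 15.8). In SW480 the next in order were RRM2, the small subunit of ribonucleotide reductase, at 351 TPM (322 and 380), POLD2, a polymerase delta subunit, at 253 TPM (259 and 247), and TYMS, thymidylate synthase, at 223 TPM (241 and 206). The libraries of PCNA and RRM2 did not overlap in SW480, whereas GINS3 and GINS4 (9.38 and 17.1) overlapped at the low end. All 39 stood between the 73.7 and 99.3 percentiles of the listed genes in SW480.

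Together the 39 genes took 0.219 to 0.537% of the counts of a library. In SW620 the share was 0.219 and 0.242% in Tet2CD cells and 0.231 and 0.221% in vector cells with TGFB1. With RepSox it was 0.483 and 0.486% in Tet2CD cells and 0.446 and 0.472% in vector cells. With DMSO it was 0.422 and 0.408% in Tet2CD cells and 0.367 and 0.377% in vector cells. The 4 libraries with TGFB1 were the lowest of the 24, and within each construct the SW620 treatments did not overlap. In SW480 the shares with TGFB1, RepSox and DMSO were 0.383 and 0.407%, 0.379 and 0.466%, and 0.499 and 0.513% in Tet2CD cells. In SW480 vector cells they were 0.485 and 0.487%, 0.537 and 0.521%, and 0.535 and 0.525%, and the RepSox and DMSO values there overlapped.

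**Figure D1:**
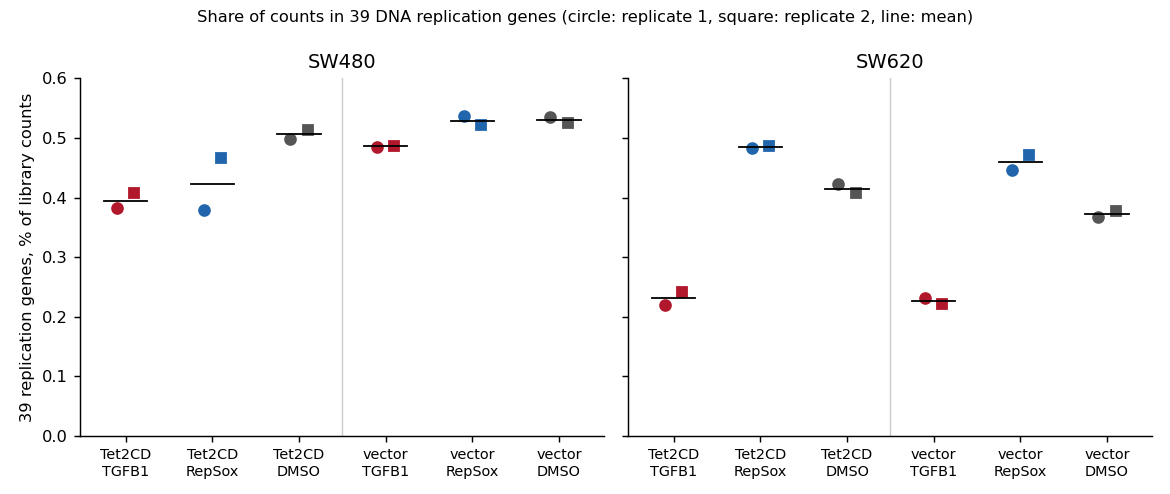
Share of all counts of a library held by the 39 replication genes (%), by construct and treatment, with SW480 left and SW620 right; circles are replicate 1, squares replicate 2 and lines the mean of the 2. The 4 SW620 libraries with TGFB1 lie between 0.219 and 0.242%, below the other 20.

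The first comparison asked how TGFB1 changed these genes relative to DMSO in SW620 cells, over both constructs (4 libraries against 4). Of the 39 members, 27 were lower with TGFB1 and 0 were higher at an adjusted p of at most 0.05 (edgeR quasi-likelihood test, Benjamini-Hochberg over 15302 genes). Over all genes tested, 7.27% were lower and 8.31% higher. The log2 fold change was below zero for 39 of 39 members, with a median of -0.77, where the median of all genes was 0.01. In 30 members every TGFB1 library lay below every DMSO library, as in 15.7% of all genes. The values below are CPM scaled by the trimmed mean of M-values, with replicate 1 before replicate 2.

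Among the 10 genes of helicase loading, 7 were lower, with a median log2 fold change of -0.84. All 6 subunits of the replicative helicase fell, by 0.77 to 1.34 on the log2 scale. MCM4 (ENSG00000104738), with the largest fall of all 39, was 110 and 121 CPM in Tet2CD cells and 119 and 113 CPM in vector cells with TGFB1, against 302 and 299 CPM and 284 and 289 CPM with DMSO. The groups were far apart, with a log2 fold change of -1.34 ± 0.22 (SE, n = 4 against 4, adjusted p = 0.000684). MCM2 (GRCh38 chr3:127598223-127622436) was 89.6 and 119 CPM in Tet2CD cells and 104 and 92.5 CPM in vector cells with TGFB1, against 251 and 220 CPM and 193 and 209 CPM with DMSO. Every TGFB1 library was below every DMSO library, at -1.10 ± 0.16 (SE, adjusted p = 0.000171). MCM6 was at -1.20 ± 0.12 (SE, adjusted p = 7.88e-06), with 40.2 to 58.8 CPM with TGFB1 and 113 to 117 CPM with DMSO. ORC1, the large subunit of the origin recognition complex, fell less (-0.51, adjusted p = 0.0224). CDC6, the loading ATPase, did not pass the test. It was 25.5 and 63.4 CPM in Tet2CD cells and 59.2 and 52.6 CPM in vector cells with TGFB1, against 56.8 and 53.4 CPM and 51.7 and 48.4 CPM with DMSO. Those groups overlapped, and the difference was -0.08 ± 0.19 (SE, adjusted p = 0.835). ORC6 (-0.15) and the loading factor CDT1 (-0.45) did not pass either.

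Among the 6 genes of helicase activation, 5 were lower, with a median of -0.77. GINS2, a subunit of the GINS complex that binds CDC45 to the helicase, was 11.7 and 17.6 CPM in Tet2CD cells and 11.0 and 10.6 CPM in vector cells with TGFB1, against 39.5 and 28.7 CPM and 33.1 and 25.2 CPM with DMSO. No library overlapped, and the log2 fold change was -1.33 ± 0.33 (SE, adjusted p = 0.0115). CDC45 (-0.56), MCM10 (-0.77), GINS1 (-0.78) and GINS3 (-0.98) passed, whereas GINS4 (-0.50, adjusted p = 0.175) did not. MCM10 is a scaffold that helps to start the unwinding of origins.

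Of the clamp and clamp loader, 3 of 6 were lower, with a median of -0.59. PCNA (chr20:5114953-5126626), the clamp that tethers the polymerases, was 104 and 99.3 CPM in Tet2CD cells and 96.0 and 95.6 CPM in vector cells with TGFB1, against 273 and 245 CPM and 226 and 232 CPM with DMSO. The 4 TGFB1 libraries lay close together and far below the others (-1.30 ± 0.13 SE, 0.406-fold, adjusted p = 9.92e-06). The loader subunits RFC3 (-1.06) and RFC4 (-0.62) passed and RFC1 (-0.08), RFC2 (-0.55) and RFC5 (-0.45) did not.

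Of the polymerase and primase genes 6 of 9 were lower, with a median of -0.69. They were POLE, the catalytic subunit of the leading-strand polymerase (-0.86), its partner POLE2 (-1.22), POLD1, the catalytic subunit of polymerase delta (-0.69), its subunit POLD3 (-0.83), POLA2, the regulatory subunit of polymerase alpha (-0.87), and PRIM1, the small primase subunit (-0.50). POLA1 (-0.32), PRIM2 (-0.10) and POLD2 (-0.60) did not pass. Of the genes for flap removal, ligation and single-strand binding 4 of 5 were lower (median -0.86), namely the flap endonuclease FEN1 (-0.86), the ligase LIG1 (-0.99) and the RPA subunits RPA1 (-0.66) and RPA2 (-0.52). RPA3 was at -0.88 with an adjusted p of 0.0591.

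Of the nucleotide supply genes 2 of 3 were lower. TYMS, which makes thymidylate, was 47.3 and 34.2 CPM in Tet2CD cells and 55.3 and 45.2 CPM in vector cells with TGFB1, against 94.8 and 93.3 CPM and 95.9 and 85.6 CPM with DMSO. The groups did not overlap (-1.03 ± 0.16 SE, adjusted p = 0.000429). RRM1, the large subunit of ribonucleotide reductase, fell to 138 ± 16.3 CPM with TGFB1, against 237 ± 6.77 CPM with DMSO (SD, n = 4 each). RRM2, its small subunit, was 71.4 and 45.8 CPM in Tet2CD cells and 58.5 and 60.1 CPM in vector cells with TGFB1, against 75.2 and 63.0 CPM and 71.8 and 63.3 CPM with DMSO. These overlapped (-0.21 ± 0.13 SE, adjusted p = 0.295), so the 2 subunits of 1 enzyme had different calls, a difference between genes that was not tested. The exons of TYMS share 967 of 2470 bases with ENOSF1 on the other strand. Counting by strand is not stated, so TYMS, and in smaller part MCM7 (392 bases shared with AP4M1) and 11 other members with shared exon bases, may hold reads of a neighbour. Of these, GINS4 shares 1159 of 5475 bases with an antisense gene. POLD1 (426 bases) and POLD3 (123 bases) overlap genes on the same strand, which counting by strand would not separate.

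**Figure D2:**
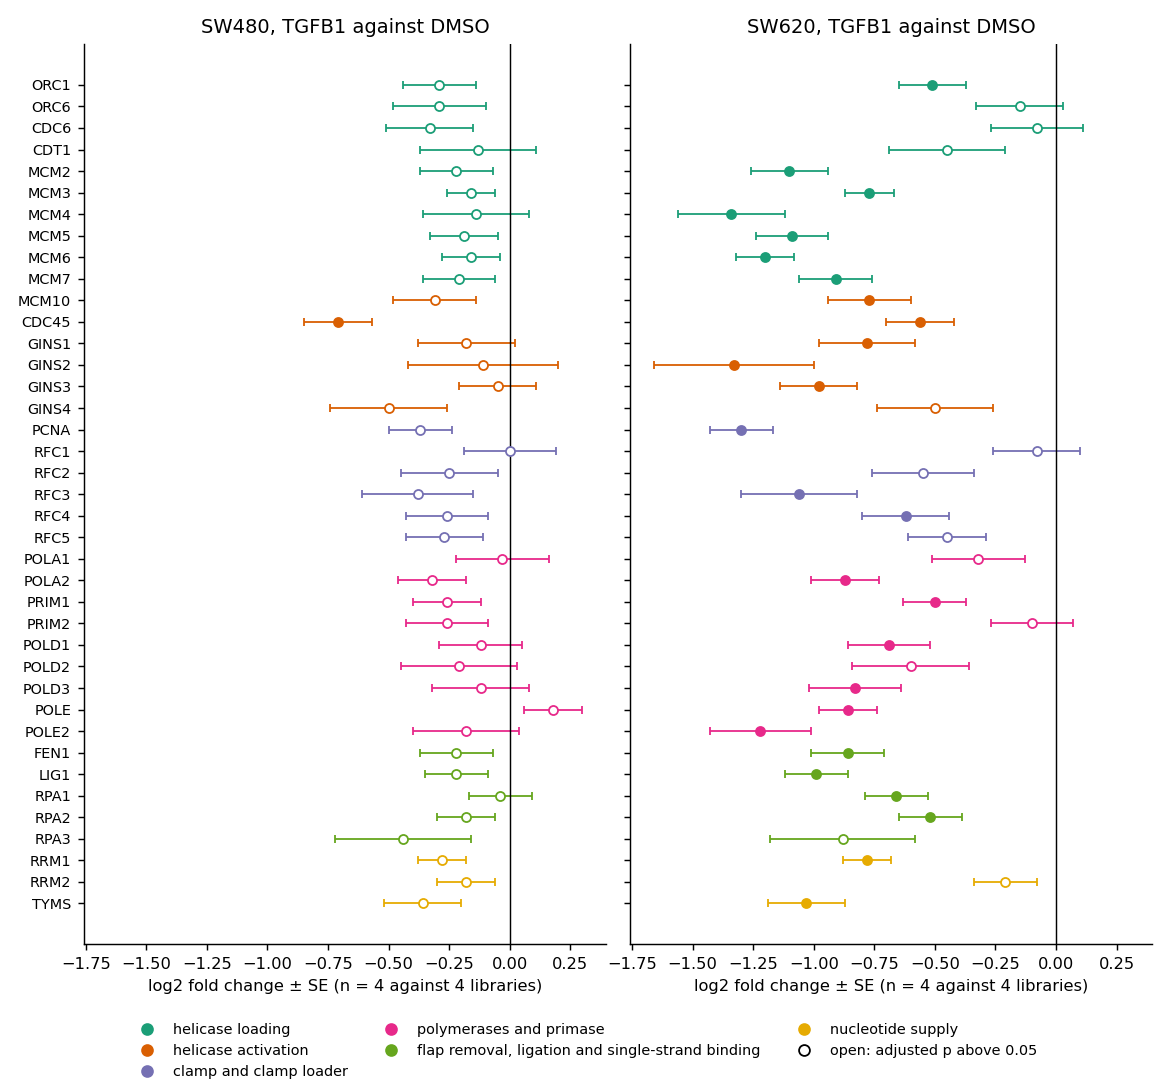
Log2 fold change of each of the 39 members with TGFB1 against DMSO, SW480 left and SW620 right, as points ± SE (4 libraries against 4), coloured by role and filled where the adjusted p was at most 0.05. In SW620 all 39 points lie below zero and 27 are filled, and in SW480 38 lie below zero and 1, CDC45, is filled.

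The fall in SW620 was present within each construct. Without the 3 SW480 libraries that stood apart 34 members were lower, with 19.1% of all genes. In Tet2CD cells alone 19 members were lower, with 1.95% of all genes lower, and the median was -0.80. In vector cells alone 13 were lower, with 2.21% of all genes, and the median was -0.65. For MCM2 the log2 fold changes were -1.17 in Tet2CD cells and -1.03 in vector cells, for PCNA -1.35 and -1.26, for TYMS -1.20 and -0.85, and for CDC6 -0.32 and 0.16. The difference between constructs in the TGFB1 effect passed the test for 0 members in SW620 and 0 in SW480. At an unadjusted p below 0.05 it was 0 members and 201 of all 15302 genes in SW620, and 2 members and 741 genes in SW480. This added test had 2 libraries in each of its 4 groups. Leaving out 1 library at a time, 21 to 27 members stayed lower, and 20 were lower in every such fit. They include all 6 MCM subunits, PCNA, POLE, LIG1, RRM1 and TYMS. By gene length the members' median was -0.88 under 1500 bases, -0.56 from 1500 to 2500 and -0.78 at 2500 or more, where all genes had -0.07, -0.00 and 0.10. Of the 23 lower members with a promoter window 14 held the E2F letters, as did 3 of the 10 not called.

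Other genes that act with these members, from lists named in the processing section, moved in the same libraries. Of 36 other replication factors 16 were lower and 0 higher, among them SUPT16H, a histone chaperone subunit (-0.84), and CHAF1B of the chromatin assembly factor (-0.76). Of 16 other nucleotide synthesis genes 4 were lower, among them CTPS1, CTP synthase (-1.12), and CAD, which starts pyrimidine synthesis (-0.95). UHRF1, which guides DNMT1 to replicated DNA, fell by 1.47 on the log2 scale (adjusted p = 0.00168). Of 22 G1/S control genes 7 were lower and 0 higher. CDC25A, the phosphatase that activates CDK2, was 17.4 and 18.3 CPM in Tet2CD cells and 19.1 and 13.5 CPM in vector cells with TGFB1, against 41.9 and 38.7 CPM and 35.9 and 38.7 CPM with DMSO. Of 20 mitosis genes 14 were lower, among them CCNB1 (-0.92) and PLK1 (-0.80). Of 6 CDK inhibitors 3 were higher and 0 lower. CDKN2B, the CDK4 inhibitor p15, was 99.1 and 73.6 CPM in Tet2CD cells and 86.4 and 94.7 CPM in vector cells with TGFB1, against 36.5 and 38.7 CPM and 51.7 and 55.1 CPM with DMSO. CDKN1A, the CDK2 inhibitor p21, was 7.83 to 11.4 CPM with TGFB1 and 3.23 to 3.97 CPM with DMSO (1.34 ± 0.17 on the log2 scale, SE, adjusted p = 6.52e-05). In each of these 3 genes the groups were separate. Of the markers of other cell types, VWF (1.11) and COL1A1 (0.83) were higher with TGFB1. Their part in these results was not tested.

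In SW480 cells the same comparison called 1 of 39 members lower and 0 higher, where 0.314% of all genes were lower and 0.732% higher. At an unadjusted p below 0.05 there were 5 of 39 members and 1967 of all 15302 genes. The median was -0.22 (all genes 0.02), with 38 of 39 below zero. The 1 member called was CDC45 (chr22:19479459-19520612). It was 34.0 and 32.4 CPM in Tet2CD cells and 30.0 and 34.4 CPM in vector cells with TGFB1, against 64.7 and 53.1 CPM and 55.8 and 41.7 CPM with DMSO. No library overlapped (-0.71 ± 0.14 SE, 0.611-fold, adjusted p = 0.0165). The call was lost in 5 of 8 fits that each left out 1 library (SW480 Tet2CD DMSO replicate 1, Tet2CD TGFB1 replicate 2, vector DMSO replicate 1 and either vector TGFB1 library), which called 0 members. Without the 3 libraries that stood apart 3 members were lower (3.30% of all genes), namely ORC6 (-0.46), CDC45 (-0.66) and RFC4 (-0.39).

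None of MCM2, CDC6, PCNA, RRM2 and TYMS passed in SW480. MCM2 was 133 and 177 CPM in Tet2CD cells and 239 and 292 CPM in vector cells with TGFB1, against 186 and 210 CPM and 273 and 293 CPM with DMSO (-0.22). PCNA was 273 and 263 CPM and 318 and 276 CPM with TGFB1, against 418 and 373 CPM and 366 and 309 CPM with DMSO (-0.37, adjusted p = 0.210). Both overlapped. CDC6 was 66.7 and 73.4 CPM and 130 and 111 CPM with TGFB1, against 112 and 112 CPM and 123 and 115 CPM with DMSO (-0.33). RRM2 was 252 and 226 CPM and 354 and 323 CPM with TGFB1, against 304 and 321 CPM and 341 and 321 CPM with DMSO (-0.18). TYMS was 118 and 110 CPM and 173 and 142 CPM with TGFB1, against 175 and 159 CPM and 197 and 158 CPM with DMSO (-0.36). In these 3 genes the Tet2CD libraries were lower with TGFB1 and the vector libraries overlapped between treatments. The only member above zero was POLE at 0.18. By construct the median was -0.38 in Tet2CD cells and -0.07 in vector cells, with 0 members called in either (0.0915 and 0.529% of all genes), and 0 of the 39 differed between constructs by the test. The Tet2CD median was -0.37 with 0 called once the 3 libraries were left out. No gene of the replication, nucleotide, G1/S, CDK inhibitor or mitosis lists was called in SW480 with TGFB1. Of the markers, CD68 of blood cells was called higher at levels near 0, with 2.99 ± 1.35 CPM with TGFB1 and 1.16 ± 1.34 CPM with DMSO (SD, n = 4 each), and the libraries overlapped. Its part was not tested.

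The difference between lines, the TGFB1 effect in SW480 minus that in SW620, was tested directly as an interaction. It passed for 8 members, all with a positive difference, and for 0.902% of all genes in that direction, against 1.17% with a negative difference. They were 4 helicase subunits, MCM2 (0.88 ± 0.22), MCM3 (0.61 ± 0.14), MCM5 (0.90 ± 0.20) and MCM6 (1.04 ± 0.17), and GINS3 (0.93 ± 0.23), PCNA (0.93 ± 0.19), POLE (1.03 ± 0.16) and LIG1 (0.77 ± 0.18), each as log2 ± SE. Adjusted p was 0.00367 for POLE, 0.00394 for MCM6 and 0.0157 to 0.0468 for the other 6. The median difference over 39 members was 0.54, and 34 were above zero. CDC45 (-0.15 ± 0.20), CDC6 (-0.25 ± 0.26), ORC6 (-0.14 ± 0.26) and PRIM2 (-0.16 ± 0.24) were below zero and not called. The count rested on single libraries. Leaving out 1 at a time gave 2 to 7, with MCM6 and POLE called in every fit. It was 6 or 7 without either SW480 Tet2CD TGFB1 library or SW620 Tet2CD TGFB1 replicate 2, and 2 to 5 without any other single library. Leaving out the 3 libraries that stood apart gave 21 (5.00% of all genes). Within 1 construct 0 members passed, in Tet2CD cells with 0.163% and in vector cells with 0.451% of all genes. The counts within 1 construct changed without the 3 libraries, also in vector cells, whose own libraries were unchanged. They are not given, as the share of all genes at that setting is not shown here. In the pooled test, leaving out the 3 libraries raised the share of all genes with a positive difference from 0.902 to 5.00%.

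**Figure D3:**
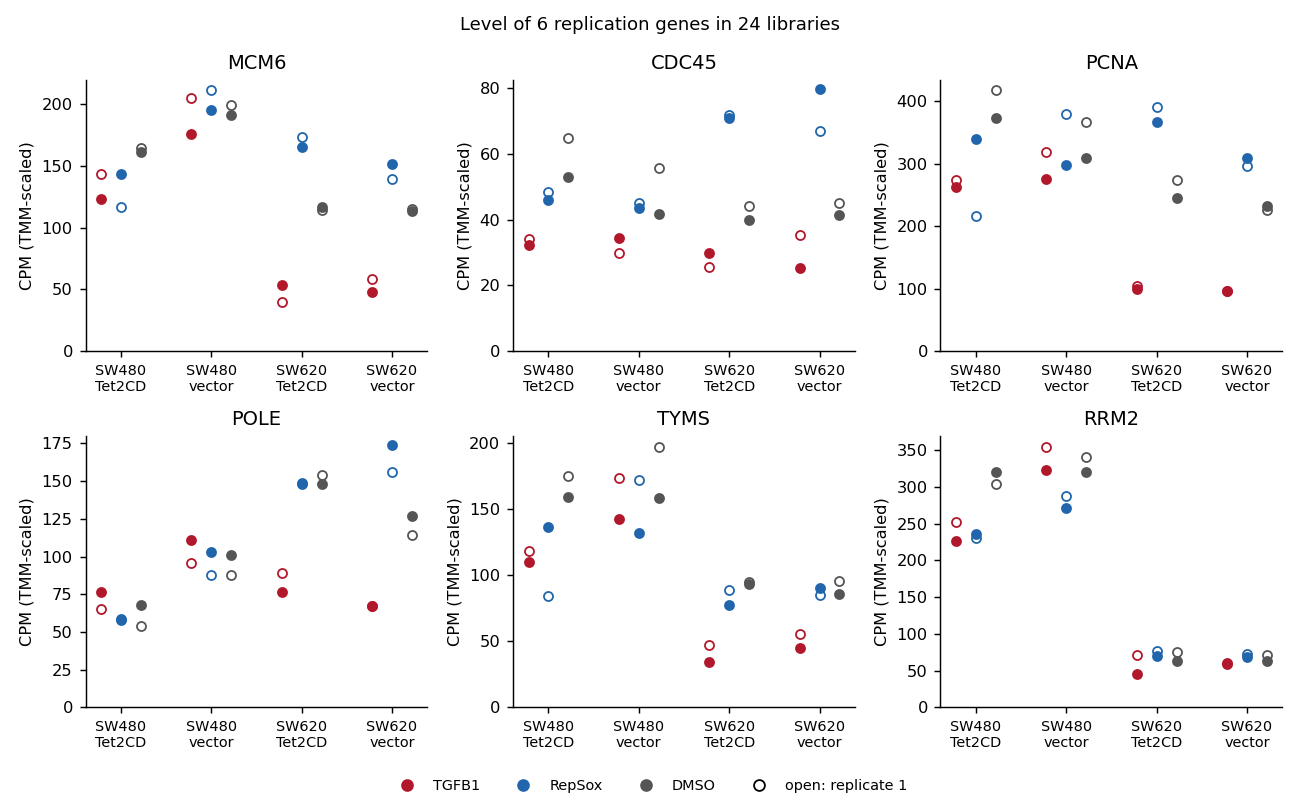
Level of MCM6, CDC45, PCNA, POLE, TYMS and RRM2 in the 24 libraries (CPM scaled by the trimmed mean of M-values, axes from 0), by line and construct, with TGFB1 red, RepSox blue and DMSO grey, and open circles for replicate 1. MCM6 with TGFB1 is 40.2 to 58.8 CPM in SW620, against 113 to 117 CPM with DMSO, and RRM2 is 226 to 354 CPM in SW480 and 45.8 to 76.3 CPM in SW620.

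RepSox blocks the receptor through which TGF-beta signals, and its comparison with DMSO shares the DMSO libraries with the TGFB1 comparison. In SW620 cells 7 of 39 members were higher with RepSox and 0 lower, where 2.01% of all genes were higher and 2.68% lower. The median was 0.31 (all genes 0.02), 36 of 39 were above zero, and in 24 members every RepSox library lay above every DMSO library, as in 10.7% of all genes. CDC45 was 71.8 and 70.9 CPM in Tet2CD cells and 66.9 and 79.8 CPM in vector cells with RepSox, against 44.2 and 39.9 CPM and 45.2 and 41.3 CPM with DMSO. The groups were far apart (0.76 ± 0.13 SE, 1.70-fold, adjusted p = 0.00318). ORC6, the smallest subunit of the origin recognition complex, was 81.3 and 79.4 CPM in Tet2CD cells and 69.7 and 76.6 CPM in vector cells with RepSox, against 56.3 and 47.1 CPM and 43.3 and 48.4 CPM with DMSO (0.65 ± 0.18 SE, adjusted p = 0.0442). The others called were FEN1 (0.58), PCNA (0.48 ± 0.13, adjusted p = 0.0494), RPA2 (0.46), MCM6 (0.45) and MCM3 (0.40).

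PCNA in SW620 was 391 and 366 CPM in Tet2CD cells and 296 and 309 CPM in vector cells with RepSox, all above the 4 DMSO libraries given earlier. CDC6 was 82.5 and 74.9 CPM and 71.8 and 72.7 CPM with RepSox and also lay above every DMSO library, but did not pass (0.52, adjusted p = 0.137). MCM2 was 260 and 271 CPM in Tet2CD cells and 234 and 257 CPM in vector cells with RepSox (0.23), a range that overlapped the 193 to 251 CPM with DMSO. RRM2 was 76.3 and 69.4 CPM and 72.3 and 68.1 CPM with RepSox (0.07), and TYMS was 89.0 and 77.4 CPM and 84.9 and 90.4 CPM (-0.11). Neither passed, and both overlapped their DMSO values given earlier. No polymerase or primase gene was called (median 0.28), nor any gene of nucleotide supply (0.07). The count was 1, CDC45, in each fit without 1 SW620 library. It was 24 in a fit on the SW620 libraries alone (9.99% of all genes higher) and 18 without the 3 SW480 libraries that stood apart (7.41%). Within 1 construct 0 members were called (0.320% of all genes higher in Tet2CD cells and 0.412% in vector cells), with medians of 0.34 and 0.35. In the other lists DTL (0.65), a ubiquitin ligase adaptor that acts at replication forks, CCND1 (0.50), CDC25A (0.52) and AURKA (0.48) were higher and CDKN2C (-0.64) was lower with RepSox. CCND2 was called higher at levels near 0, with 1.25 ± 0.579 CPM with RepSox and 0.197 ± 0.243 CPM with DMSO (SD, n = 4 each). Of the markers, CDX2 (-1.21) and COL1A1 (-1.08) were lower. PECAM1 was called higher at low levels, with 7.04 ± 3.59 CPM with RepSox and 2.46 ± 0.861 CPM with DMSO, and the libraries overlapped. CDH17 was called lower, at 0 in every RepSox library and 1.13 ± 0.171 CPM with DMSO. Their part in these results was not tested.

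In SW480 cells RepSox changed 0 members and 0 of the 15302 genes by edgeR. By unadjusted p below 0.05 it was 3 members and 433 genes, and DESeq2 called 0 members. The median was -0.10. The 3 nucleotide supply genes had the smallest p. RRM2 was 231 and 236 CPM in Tet2CD cells and 288 and 271 CPM in vector cells with RepSox, against 304 and 321 CPM and 341 and 321 CPM with DMSO. These did not overlap, as in 0.418% of all genes, but the difference of -0.33 ± 0.12 (SE) had an adjusted p of 1.000. TYMS was 84.2 and 136 CPM and 172 and 132 CPM with RepSox, against 175 and 159 CPM and 197 and 158 CPM with DMSO (-0.41 ± 0.16 SE, adjusted p = 1.000), and overlapped. MCM2 was 113 and 196 CPM and 295 and 299 CPM with RepSox, against 186 and 210 CPM and 273 and 293 CPM with DMSO (-0.14). CDC6 was 99.9 and 95.2 CPM and 111 and 123 CPM with RepSox, against 112 and 112 CPM and 123 and 115 CPM with DMSO (-0.11). PCNA was 217 and 340 CPM and 379 and 298 CPM with RepSox, against 418 and 373 CPM and 366 and 309 CPM with DMSO (-0.25). All 3 overlapped. Leaving out the 3 libraries that stood apart also gave 0 members called. The RepSox effect differed between lines for 1 member, CDC45 (SW480 minus SW620, -0.99 ± 0.19 SE, adjusted p = 0.0186), where 0.327% of all genes had a negative and 0.699% a positive difference. Leaving out 1 library gave 0 to 8, with 8 without SW480 Tet2CD RepSox replicate 2. It gave 0 without SW480 Tet2CD DMSO replicate 1, SW480 vector DMSO replicate 1 or RepSox replicate 2, SW620 Tet2CD DMSO replicate 2, either SW620 Tet2CD RepSox library, or SW620 vector DMSO or RepSox replicate 2. Without the 3 libraries that stood apart 7 members were called (1.46% of all genes). The median difference was -0.41.

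The third question was how Tet2CD cells differed from vector cells. In SW480, over the 3 treatments (6 libraries against 6), 19 of 39 members were lower and 2 higher in Tet2CD cells. This comparison called 25.3% of all genes lower and 29.2% higher. The median of the members was -0.28 (all genes 0.03). In 10 members, MCM2, MCM4, MCM6, MCM10, RFC1, RFC3, RFC5, POLA1, POLE and RRM1, every Tet2CD library lay below every vector library, as in 9.66% of all genes. Without the 3 libraries that stood apart 15 members were lower and 0 higher, with 20.8% of all genes lower, 18.5% higher and a median of -0.21 for the members.

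The largest fall was in POLA1 (chrX:24693919-24996986), the catalytic subunit of polymerase alpha. Its lowest, median and highest values were 27.3, 50.1 and 63.8 CPM in Tet2CD cells and 92.8, 106 and 108 CPM in vector cells. The groups were separate, with a log2 fold change of -1.08 ± 0.16 (SE, n = 6 against 6, adjusted p = 7.47e-05), or -0.78 without the 3 libraries. RFC3, a clamp loader subunit, was 11.5, 31.0 and 43.2 CPM in Tet2CD cells and 51.8, 57.7 and 62.8 CPM in vector cells (-1.03 ± 0.19 SE, or -0.68 without the 3). MCM4 was 112, 232 and 294 CPM in Tet2CD cells and 364, 410 and 446 CPM in vector cells (-0.94 ± 0.18 SE, or -0.58). RFC1, the large subunit of the clamp loader, was 31.5, 47.3 and 66.9 CPM in Tet2CD cells and 83.7, 90.5 and 98.5 CPM in vector cells (-0.86 ± 0.15 SE, or -0.57). In each of these 4 genes replicate 1 of every Tet2CD treatment was lower than replicate 2.

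By role, 6 of 10 helicase loading genes were lower, 3 of 6 of helicase activation, 3 of 6 of the clamp and its loader, 4 of 9 polymerase and primase genes, 0 of 5 for flap removal, ligation and single-strand binding, and 3 of 3 for nucleotide supply. These counts were 6, 1, 3, 2, 0 and 3 without the 3 libraries, with GINS1, GINS4, PRIM2 and POLD3 no longer called. MCM2 was 113, 181 and 210 CPM in Tet2CD cells and 239, 293 and 299 CPM in vector cells (-0.74 ± 0.13 SE, adjusted p = 0.000251, or -0.56 without the 3). POLE was at -0.63 with an adjusted p of 9.60e-05, or -0.56 without the 3. CDC6 was 66.7, 97.6 and 112 CPM in Tet2CD cells and 111, 119 and 130 CPM in vector cells (-0.38 ± 0.15 SE, adjusted p = 0.0396, or -0.39). Its overlap was small and lay between treatments, not within any of them. TYMS was 84.2, 127 and 175 CPM in Tet2CD cells and 132, 165 and 197 CPM in vector cells (-0.34 ± 0.13 SE, adjusted p = 0.0353, or -0.29). RRM2 was 226, 244 and 321 CPM in Tet2CD cells and 271, 322 and 354 CPM in vector cells (-0.28 ± 0.10 SE, adjusted p = 0.0255, or -0.31). PCNA did not pass, at 217, 306 and 418 CPM in Tet2CD cells and 276, 314 and 379 CPM in vector cells (-0.07, adjusted p = 0.627, or -0.03). Its Tet2CD libraries were below the vector libraries with TGFB1, above them with DMSO, and overlapped them with RepSox.

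The 2 members called higher were RPA3 and MCM5. RPA3, the smallest RPA subunit, was 47.6, 84.2 and 163 CPM in Tet2CD cells and 33.3, 43.3 and 79.5 CPM in vector cells (0.93 ± 0.23 SE, adjusted p = 0.00343). Its highest 3 values, 98.6, 163 and 121 CPM, were those of replicate 1 with TGFB1, RepSox and DMSO, and without these 3 libraries the difference was 0.30 (adjusted p = 0.108). MCM5 was 130, 161 and 210 CPM in Tet2CD cells and 98.6, 124 and 139 CPM in vector cells (0.43 ± 0.12 SE), or 0.19 without the 3 (adjusted p = 0.104). Both calls ended without them.

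Gene length and GC content moved with this result. The 19 lower members had a median length of 2940 bases, and the 18 not called 1789 bases. Their median GC content was 46.2 and 51.5%. The count-weighted mean GC of the 3 libraries that stood apart was 53.2% with TGFB1, 53.6% with RepSox and 52.4% with DMSO. In the other libraries it was 49.5 to 51.7%. A fit with an offset for GC content is given in the last section. Of the 13 members of 2500 bases or more 11 were lower, where 43.5% of all genes of that length were, and in that range the median of the members was -0.57 and that of all genes -0.36. Under 1500 bases 1 of 7 members was lower, where 7.34% of all genes were. There the median was -0.01 for the 7 members and 0.57 for all genes, and between these limits it was 0.13 for 19 members and 0.11 for all genes. Without the 3 libraries the medians of the members were -0.07, -0.17 and -0.49 from short to long and those of all genes 0.16, 0.04 and -0.20. At 2500 bases or more 10 of 13 members were then lower, where 34.2% of all genes were. How far the length composition of the libraries accounts for the calls was not tested.

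**Figure D4:**
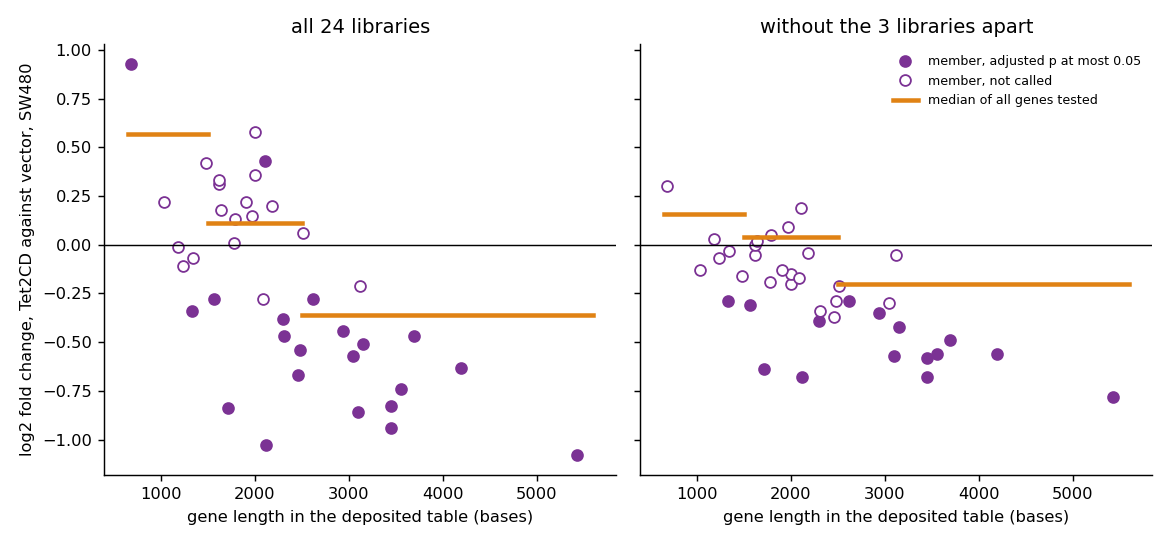
Log2 fold change of the 39 members in SW480 Tet2CD against vector cells by gene length in bases, from all 24 libraries (left) and without the 3 libraries that stood apart (right); purple circles are members, filled where the adjusted p was at most 0.05, and orange lines are the medians of all genes tested in 3 length ranges. On the left the medians of all genes fall by length, with 0.57, 0.11 and -0.36, and on the right with 0.16, 0.04 and -0.20.

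Within single treatments, 13 members were lower in Tet2CD cells with TGFB1 (10.0% of all genes), 11 with RepSox (7.57%) and 2 with DMSO (2.57%). None was higher, where 14.7, 11.8 and 4.19% of all genes were. The medians were -0.34, -0.27 and -0.08. Leaving out the 3 libraries, which keeps 1 Tet2CD library in each treatment and assumes that it varies like the others, gave 13, 8 and 3 members lower (11.0, 6.65 and 5.57% of all genes). POLA1 was called in all 3, at -1.08, -1.20 and -0.95, whereas CDC6 (-0.78) and RRM2 (-0.50) were called with TGFB1 and not with RepSox or DMSO. The test of the TGFB1 and RepSox effects between constructs called 0 members in SW480. Of the other lists in SW480 Tet2CD cells, 14 of 20 mitosis genes were lower (MKI67 -1.44, CENPF -1.17), 16 of 36 other replication factors lower and 5 higher (TICRR -0.98 and POLD4 1.93), and 9 of 16 nucleotide synthesis genes lower and 1 higher (CAD -1.05 and TK1 0.99). Of G1/S genes 11 of 22 were lower and 4 higher (MYC -1.22 and CCND3 0.87), 3 of 6 CDK inhibitors were higher (CDKN1C 1.51), and DNMT1, the maintenance DNA methyltransferase, was lower (-0.84). Of 9 epithelial markers tested, 7 were higher and 0 lower, as were 2 of 2 endothelial and 1 of 3 fibroblast markers, while 1 of 2 blood cell markers was lower. With the 3 libraries left out, 18 mitosis genes, 11 other replication factors, 9 nucleotide synthesis genes and 13 G1/S genes were lower, 1, 1 and 2 of the last 3 lists were higher, and 2 CDK inhibitors and 3 epithelial markers were higher. The part of the markers was not tested.

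In SW620, Tet2CD and vector cells differed in 0 of 39 members (0 by DESeq2), where 0.274% of all genes were higher and 0.0392% lower. At an unadjusted p below 0.05 it was 1 member and 1100 of all 15302 genes. Log2 fold changes ran from -0.29 for ORC1 to 0.39 for GINS2 with a median of 0.03. MCM2 was 89.6, 236 and 271 CPM in Tet2CD cells and 92.5, 201 and 257 CPM in vector cells. CDC6 was 25.5, 60.1 and 82.5 CPM in Tet2CD cells and 48.4, 55.9 and 72.7 CPM in vector cells. PCNA was 99.3, 259 and 391 CPM in Tet2CD cells and 95.6, 229 and 309 CPM in vector cells. RRM2 was 45.8, 70.4 and 76.3 CPM in Tet2CD cells and 58.5, 65.7 and 72.3 CPM in vector cells, and TYMS was 34.2, 83.2 and 94.8 CPM in Tet2CD cells and 45.2, 85.3 and 95.9 CPM in vector cells. The constructs overlapped over most of their range in these genes.

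The Tet2CD effect differed between lines, SW480 minus SW620, for 12 members, all negative, where 9.93% of all genes had a negative and 10.2% a positive difference. The 4 largest were POLA1 (-1.06 ± 0.22), MCM4 (-0.96 ± 0.25), RFC3 (-0.95 ± 0.27) and MCM10 (-0.93 ± 0.19), each as log2 ± SE, with adjusted p of 0.00454, 0.0158, 0.0237 and 0.00453. POLA1 in SW620 was 60.0, 90.2 and 115 CPM in Tet2CD cells and 73.6, 91.8 and 112 CPM in vector cells, with the constructs overlapping. MCM4 in SW620 was 110, 300 and 362 CPM in Tet2CD cells and 113, 286 and 353 CPM in vector cells. The other 8 were MCM2 (-0.89), GINS4 (-0.88), RFC5 (-0.85), POLE (-0.78), RFC1 (-0.72), MCM6 (-0.49), MCM3 (-0.38) and RRM1 (-0.36). All 12 kept their call without the 3 libraries, when 14 were called in all (12.5% of all genes). Of the 12, 8 kept their call whichever single library was left out and 9 under every change of scaling, filter, library number term, GC offset and tool. In length, 9 of the 12 are 2500 bases or longer. Of the 13 members of that length 9 were called negative, where 17.6% of all genes of that length were. From short to long the medians of all genes were 0.49, 0.07 and -0.33 and those of the members 0.05, -0.06 and -0.51. The part of length in this difference was not tested. Leaving out 1 library gave 8 to 19 members, with 19 without SW480 Tet2CD RepSox replicate 2. Within a single treatment 0 passed, where 4.03% of all genes did with TGFB1, 0.340% with RepSox and 0.484% with DMSO. More passed without the 3 libraries, a fit that keeps 1 SW480 Tet2CD library in each treatment. The share of all genes at that setting is not given here.

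The last comparison set SW480 against SW620 in vector cells over the 3 treatments (6 libraries against 6). In SW480, 19 of 39 members were higher and 6 lower, where 28.9% of all genes were higher and 30.0% lower. The median was 0.37 (all genes -0.04). Without the 3 SW480 Tet2CD libraries, which enter here only through the shared spread, 32 members were called (36.8% of all genes higher and 33.9% lower). RRM2 (chr2:10120698-10131419) differed most, at 271, 322 and 354 CPM in SW480 and 58.5, 65.7 and 72.3 CPM in SW620, with no overlap (2.27 ± 0.11 SE, 4.81-fold, adjusted p = 1.31e-11). MCM7 was 654, 760 and 867 CPM in SW480 and 166, 345 and 503 CPM in SW620 (1.35 ± 0.12 SE). RFC2 was 74.2, 82.3 and 100 CPM in SW480 and 21.4, 37.3 and 59.6 CPM in SW620 (1.22 ± 0.17 SE). TYMS was 132, 165 and 197 CPM in SW480 and 45.2, 85.3 and 95.9 CPM in SW620 (1.14 ± 0.13 SE, adjusted p = 1.06e-06). These 4 genes, CDC6 and 4 others had every SW480 library above every SW620 library, as in 19.5% of all genes. CDC6 was 111, 119 and 130 CPM in SW480 and 48.4, 55.9 and 72.7 CPM in SW620 (1.02 ± 0.15 SE). MCM2 was 239, 293 and 299 CPM in SW480 and 92.5, 201 and 257 CPM in SW620 (0.74 ± 0.13 SE), and PCNA was 276, 314 and 379 CPM in SW480 and 95.6, 229 and 309 CPM in SW620 (0.79 ± 0.11 SE). Both passed, with some overlap between libraries of different treatments. Within each treatment MCM2 was higher in both SW480 libraries. PCNA was so with TGFB1 and DMSO and overlapped with RepSox.

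The 6 lower in SW480 were led by ORC6, at 24.0, 31.4 and 32.5 CPM in SW480 and 43.3, 48.2 and 76.6 CPM in SW620 (-0.85 ± 0.15 SE, adjusted p = 0.000114). POLE2, a polymerase epsilon subunit, was 6.40, 8.75 and 9.69 CPM in SW480 and 6.12, 15.8 and 21.6 CPM in SW620 (-0.71 ± 0.17 SE). It overlapped through the SW620 TGFB1 libraries, at 6.12 and 9.22 CPM. ORC1 was 24.4, 27.0 and 30.6 CPM in SW480 and 31.7, 41.3 and 58.5 CPM in SW620 (-0.63 ± 0.12 SE), and PRIM1 was 31.8, 40.0 and 46.7 CPM in SW480 and 42.7, 59.8 and 75.4 CPM in SW620 (-0.58 ± 0.11 SE). POLD3 (-0.58) and RFC1 (-0.56) completed the 6. ORC1, ORC6 and RFC1 had no overlap, as in 19.2% of all genes.

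The lines were also set against each other within each treatment. With TGFB1 27 members were higher in SW480 and 0 lower (20.1 and 20.2% of all genes), with RepSox 8 and 9 (19.2 and 18.1%), and with DMSO 10 and 4 (17.8 and 16.8%). The medians were 0.90, -0.11 and 0.37. RRM2 was higher in SW480 under each treatment, at 2.51, 1.99 and 2.29. PCNA was at 1.63, 0.16 and 0.56 and MCM2 at 1.44, 0.28 and 0.50, and neither was called with RepSox. ORC6 was at -0.62, -1.41 and -0.51 and was called with RepSox alone. The matching test, of the TGFB1 effect between lines in vector cells, called 0 members. At an unadjusted p below 0.05 there were 15 members and 1568 of all 15302 genes. The count of members changed without the 3 SW480 Tet2CD libraries, a setting that raised the share of all genes in the pooled test. That count is not given, as no share of all genes stands beside it. The matching RepSox test called 0 members, and at an unadjusted p below 0.05 there were 3 members and 778 genes. Of the other lists 15 of 22 G1/S genes were higher and 5 lower in SW480, including CCND1 (3.63) and CDK6 (-2.48), and of the CDK inhibitors CDKN1A (4.77), CDKN1B (0.40) and CDKN1C (0.69) were higher and CDKN2B (-3.06) lower. Of the markers, CDX2 (1.90) was higher and VIL1 (-2.70) lower in SW480. CD68 was 2.78 ± 0.783 CPM in SW480 and 33.3 ± 5.68 CPM in SW620, LUM 0.0427 ± 0.105 and 12.7 ± 2.85 CPM, and PECAM1 0.222 ± 0.204 and 2.83 ± 1.09 CPM (SD, n = 6 each). Their part was not tested.

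**Figure D5:**
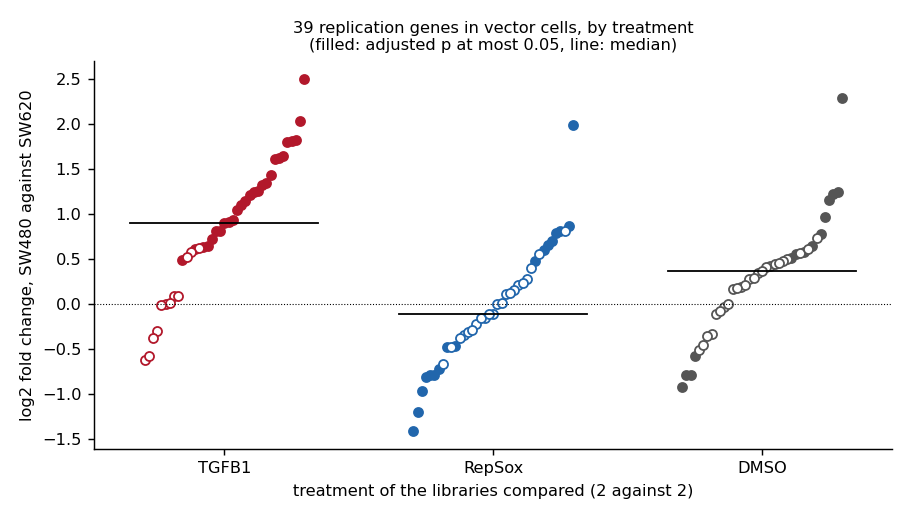
Log2 fold change of the 39 members in SW480 against SW620 vector cells within each treatment (2 libraries against 2), sorted within a treatment, filled where the adjusted p was at most 0.05, with a line at the median. The medians are 0.90 with TGFB1, -0.11 with RepSox and 0.37 with DMSO, and the topmost point of each is RRM2.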

How the data were processed

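The 24 RNA-seq libraries were made with TRIzol and TruSeq kits, per the labels. The authors trimmed reads and quantified genes with RSEM on bowtie2 alignments, and deposited 1 table per library with expected counts and TPM per gene. The submitters' processing notes name Bowtie, RSEM and the build mm10, but the gene IDs are human Ensembl IDs. A GC-content normalisation is stated in the methods, and no source states whether the deposited expected counts carry it. In 22 of 24 tables the effective length equals the length. Symbols came from GENCODE 29 (GRCh38) for 32777 of 33382 genes (98.2%).

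Expected counts were rounded to whole numbers, filtered with filterByExpr by group and scaled by the trimmed mean of M-values. The quasi-likelihood test of edgeR 4.0.16 (R 4.3.3, limma 3.58.1) was fitted once over 12 groups, 24 libraries and 15302 genes with 12 residual degrees of freedom (biological coefficient of variation 21.3%), with Benjamini-Hochberg adjusted p of at most 0.05 and two-sided tests. SE is the size of the log2 fold change divided by the square root of F. The test was also run on simulated counts drawn independently for each library. These hold no shift like that of the 3 libraries that stood apart, so they say nothing on its effect. TPM was used to compare genes with each other. Library depth of 2146123 to 4410567 counts limits precision for genes of low level, and counts carry no molecular identifiers.

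The members and the lists (36 other replication factors, 16 other nucleotide synthesis genes, 3 of maintenance methylation, 22 of G1/S control, 6 CDK inhibitors, 20 of mitosis and 4 marker lists) were chosen with earlier results of these data known. Values library by library, or as the lowest, median and highest of 6, were given for MCM2, CDC6, PCNA, RRM2 and TYMS in each comparison, for the called members with the 4 largest changes each way in the Tet2CD and line comparisons and the 2 largest in the treatment comparisons (or the 2 of smallest p), with members of other lists named only where called. MCM6 and some other members in the promoter and level plots, CDC25A and the CDK inhibitors were shown in more detail after their values were seen. Alternatives were DESeq2 1.42.0, relative log expression scaling, no filter, a term for library number range, an offset for GC content, libraries of 1 line, 1 treatment or 1 construct, and leaving out each library. The fit without 3 SW480 Tet2CD libraries its single-treatment and list counts, and the test of treatment effects between constructs were chosen after seeing the data. Promoter windows are RefSeq, GRCh38.p14, and the last bases of 37 of 41 windows matched a transcript. Promoters of 6 members are not shown or counted here.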

Additional observations from a re-analysis of the deposited data

Results flagged for a closer look

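A difference between the lines in the effect of the same contrast, by the interaction test of edgeR's quasi-likelihood fit, set 21 results apart, and they concern 17 genes of replication. For Tet2CD against vector cells (SW480 minus SW620) they are POLA1 -1.06, MCM4 -0.96, RFC3 -0.95, MCM10 -0.93, MCM2 -0.89, GINS4 -0.88, RFC5 -0.85, POLE -0.78, RFC1 -0.72, MCM6 -0.49, MCM3 -0.38 and RRM1 -0.36 on the log2 scale. In SW620 these 12 genes had 0 calls. For TGFB1 against DMSO they are MCM6 1.04, POLE 1.03, GINS3 0.93, PCNA 0.93, MCM5 0.90, MCM2 0.88, LIG1 0.77 and MCM3 0.61, all lower in SW620 and none called in SW480. MCM2, MCM3, MCM6 and POLE stand in both lists. For RepSox against DMSO there is CDC45 at -0.99, which was higher in SW620 (0.76) and at -0.23 in SW480. The TGFB1 and RepSox differences share the DMSO libraries, and the Tet2CD differences hold the 3 SW480 libraries that stood apart.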

How the results depend on the processing

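The labels carry library numbers and no replicate numbers, and a lower and a higher range of them hold 1 library of every group each. A fit with this range as a replicate block called 22 members for Tet2CD in SW480, 29 for TGFB1 in SW620, 9 for the TGFB1 difference between lines, 9 for RepSox in SW620, 13 for the Tet2CD difference and 26 between lines. That block and relative log expression scaling changed no count by over 1.5 times and no median by more than 0.08, the spread between replicates. Counts are of members called and medians are log2. Where no share of all genes is given for a setting, a change in count may hold for all genes as well. With DESeq2 the counts were 2 for TGFB1 in SW480, 11 for RepSox in SW620 and 5 for the RepSox difference between lines. With no filter they were 5 for the TGFB1 difference, 3 for RepSox in SW620 and 2 for the RepSox difference. The GC offset gave a median of -0.18 for Tet2CD in SW480 and 2 members for the RepSox difference. Libraries of 1 line gave 1 member for Tet2CD in SW620, 0 for TGFB1 in SW480 and 24 for RepSox in SW620. With DMSO libraries only, Tet2CD in SW480 had 2 members and a median of -0.08, Tet2CD in SW620 a median of 0.12, the Tet2CD difference 0 members and -0.10, and the line comparison 14 members. With RepSox libraries only these were 11 members for Tet2CD in SW480, 0 and -0.38 for the difference, and a line median of -0.11. With TGFB1 libraries only they were 13, 0 and a line median of 0.90. With Tet2CD cells only, TGFB1 in SW480 had 0 members and -0.38, the TGFB1 difference 0, RepSox in SW480 a median of -0.24, RepSox in SW620 0 members, and the RepSox difference 0 and -0.52. With vector cells only, TGFB1 in SW480 had 0 and -0.07, TGFB1 in SW620 13 and -0.65, the TGFB1 difference 0 and 0.62, RepSox in SW480 a median of 0.04, RepSox in SW620 0 members, and the RepSox difference 0 and -0.30. These single-treatment and single-construct fits have fewer libraries. Without the 3 SW480 Tet2CD replicate 1 libraries the counts were 3 for TGFB1 in SW480, 21 for the TGFB1 difference, 18 for RepSox in SW620 and 7 for the RepSox difference. In the line comparison RFC4 turned to -0.15 (adjusted p = 0.667) with RepSox libraries only and POLD3 to 0.02 (adjusted p = 0.976) with TGFB1 libraries only. Leaving out 1 library at a time, counts and medians ranged 18 to 30 and -0.36 to -0.21 for Tet2CD in SW480, 0 to 0 and 0.02 to 0.06 in SW620, and 8 to 19 and -0.35 to -0.17 for their difference. They ranged 0 to 1 and -0.27 to -0.19 for TGFB1 in SW480, 21 to 27 and -0.78 to -0.74 in SW620, and 2 to 7 and 0.50 to 0.59 for the difference. They ranged 0 to 0 and -0.17 to -0.06 for RepSox in SW480, 1 to 1 and 0.29 to 0.34 in SW620, 0 to 8 and -0.50 to -0.32 for the difference, and 24 to 25 and 0.36 to 0.46 between lines. Calls kept under every change of tool, scaling, filter, block and GC offset were 13 of 21 for Tet2CD in SW480, 22 of 27 for TGFB1 in SW620, 3 of 8 for the TGFB1 difference, 1 of 7 for RepSox in SW620 and 25 of 25 between lines. Other causes of these changes were not tested.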
